A study of Ovis aries with 115 samples.

Results

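The comparison concerned the cervix of Suffolk ewes at the follicular phase, reached either after oestrous synchronisation or in a natural cycle. Its members were chosen by their labels alone, as all Suffolk follicular libraries whose labels give an induced or a natural cycle. They numbered 19 of the 115 RNA-seq libraries of the series, with 11 from synchronised ewes and 8 from ewes in a natural cycle. The Suffolk library whose title names a natural follicular ewe while its labels name a synchronised luteal ewe was left out of every comparison. The question addressed was whether synchronisation changes cervical gene expression in a breed with low pregnancy rates after cervical insemination with frozen-thawed semen.

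The synchronised ewes had been treated with an intravaginal progestagen sponge (flugestone acetate) and then with equine chorionic gonadotropin at sponge removal. Tissue was taken post mortem at a set time after sponge removal, and the ovaries were examined after slaughter to check the follicular phase. The natural group is given by its label only, and how the phase was recognised in those ewes is not given in the sources used here. The paper refers to an earlier gene expression analysis of the same breeds in the natural cycle. Collection date and sequencing run entered no fit, and differences in them cannot be told apart from the cycle. The ewes of the synchronised group were multiparous Suffolk ewes kept in Ireland, and each library is 1 ewe, from sections of the mid cervix. Belclare ewes, also in Ireland, and ewes of the Fur breed and Norwegian White Sheep (NWS), both in Norway, served for comparison, with 20, 18 and 20 follicular libraries of both cycles. The 10 synchronised luteal Suffolk libraries were used only to show levels in the other phase.

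In the follicular phase rising oestradiol acts on the cervix, whose epithelium secretes abundant thin mucus and whose muscle and collagen soften before mating. In the luteal phase progesterone reverses these changes. A progestagen sponge mimics the luteal phase, and its removal together with gonadotropin brings the ewes into a timed follicular phase, which a natural cycle reaches through luteolysis. The cervical section holds secretory and ciliated epithelium, squamous epithelium towards the vagina, fibroblasts, smooth muscle, vessels and leukocytes, so that a level in bulk RNA reflects both the share of a cell type and its RNA per cell, which cannot be told apart here.

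Total counts ran from 15177320 to 31261671 per synchronised library (median 16456361) and from 13406420 to 20773445 per natural library (median 15934767), and did not differ between the groups (two-sided exact permutation test over 75582 divisions, p = 0.387). At these depths 3 counts equal 0.096 to 0.224 CPM, the count scaled to a common library total. As a check of the tissue label, the epithelial identity and junction genes summed to 4350 to 6510 CPM in the synchronised and 3090 to 5940 CPM in the natural libraries, and mucins and mucus-glycosylating enzymes to 2440 to 5130 and 1110 to 6260 CPM. As a check of the phase label, the oestrogen and progesterone list summed to 983 to 1720 CPM in the synchronised, 840 to 1630 CPM in the natural and 319 to 1040 CPM in the luteal libraries. Natural replicates 5, 6 and 7 (957, 846 and 840 CPM) lay below the highest luteal library. So did synchronised replicates 1 and 6, at 983 and 988 CPM. The next luteal library stood at 607 CPM. The list was chosen with earlier results of these data known, so the check is not independent.

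The natural libraries varied more among themselves than the synchronised ones. The SD of a gene's log2 CPM within a group had a median over genes of 0.316 in the synchronised and 0.401 in the natural libraries, and the natural SD was the larger in 74.5% of genes. Natural replicate 4 was the highest of all 19 libraries in 13.2% of genes and the lowest in 14.8%, where an even share would give 5.26%. Natural replicates 6 and 7 followed, being the highest in 11% and 11.5% of genes. Without natural replicate 4 the natural median SD was 0.368, and the natural SD was still the larger in 66% of genes.

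On the first principal component, which carried 23.6% of the variance, natural replicate 4 stood at 102, and the next library, natural replicate 9, at 44.6. The synchronised libraries lay inside the range of the natural ones on that axis. On the second component, with 18.8% of the variance, synchronised replicates 1, 10 and 11 and natural replicates 4, 5 and 6 lay at negative values and the other 13 libraries at positive ones, so that both groups were split by it. The share of the variance that lay between the cycles was 6.72%, against a median of 5.23% over all 75582 divisions of the 19 libraries (one-sided exact permutation test, p = 0.226).

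**Figure D1:**
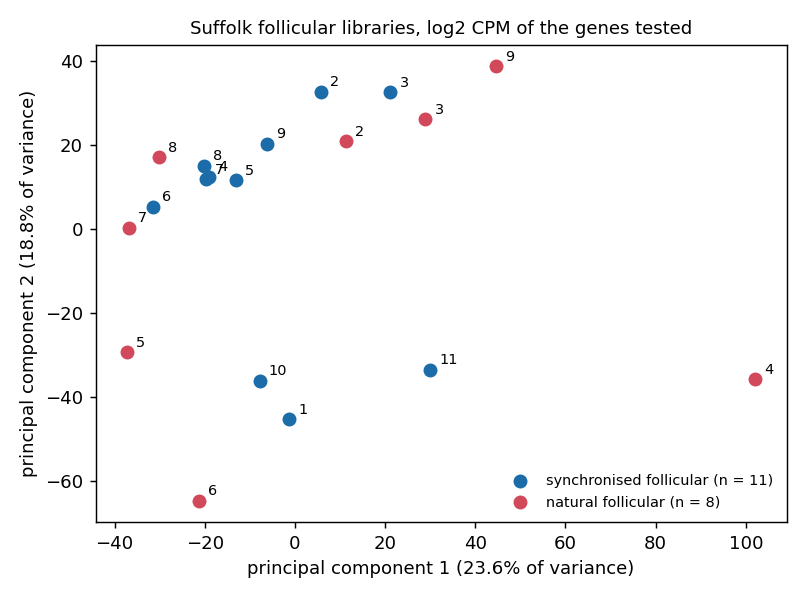
First against second principal component of log2 CPM over the genes tested, 1 point per library labelled with its replicate number, with synchronised libraries in blue and natural ones in red. The groups overlap, and natural replicate 4 lies at 102 on the first component, apart from the other 18 libraries.

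No gene passed the test between the cycles. Of 14378 genes tested, 0 were differentially expressed genes (DEGs) in either direction, which is 0% of them, with edgeR's quasi-likelihood test, a Benjamini-Hochberg adjusted p under 0.05 and a fold change (FC) above 1.5. The smallest adjusted p was 0.54. An unadjusted p under 0.05 was reached by 1193 genes (8.3%), 399 of them higher in the synchronised ewes (2.78%) and 794 higher in the natural ewes (5.52%). By sign alone 6585 genes were higher in the synchronised (45.8%) and 7793 higher in the natural ewes (54.2%). Over the genes tested, the standard error (SE) of the log2 fold change had a median of 0.167.

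Another tool gave few calls. DESeq2's Wald test called 6 of the 14378 genes (0.0417%, with 9.35% at an unadjusted p under 0.05), 2 higher in the synchronised and 4 higher in the natural ewes, and its likelihood ratio test called 3 (0.0209%, with 9.29% at an unadjusted p under 0.05), all 3 among the 6. Among the 6 only PI16 has a name. The other 5 are known by identifier alone and are given because DESeq2 called them, so they were chosen after their values were seen. With limma voom 0 genes passed and 954 (6.64%) had an unadjusted p under 0.05.

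The share of genes with small p-values depended on single natural libraries. Without natural replicate 7 the share of genes with an unadjusted p under 0.05 was 5.2%, and without natural replicates 4, 6 and 7 it was 4.18%. It was 12.2% without natural replicate 5. None of the 19 fits that each left out 1 library gave a DEG. The gap between the directions also narrowed without natural replicates 4, 6 and 7, to 276 genes higher in the synchronised and 317 higher in the natural ewes.

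**Figure D2:**
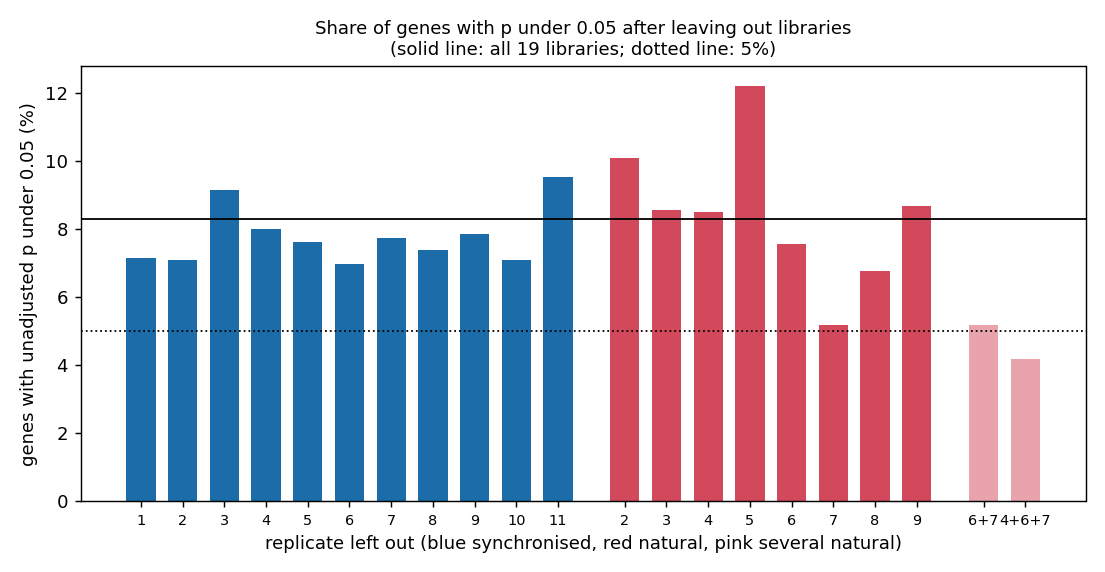
Share of the genes tested, in percent, with an unadjusted p under 0.05 (edgeR) after leaving out each library in turn (blue synchronised, red natural) or several natural libraries (pink). The solid line is the 8.3% of all 19 libraries and the dotted line 5%. The share lies between 5.2% and 12.2% when 1 library is left out and is 4.18% without natural replicates 4, 6 and 7.

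The groups did not overlap in 2 of the 14378 genes (0.0139%), in both of which every synchronised library lay above every natural one. These 2 genes were picked out after their values were seen. ENSOARG00000014490, which has no name in the tables used, stood at 2.11, 4.88 and 16.8 CPM (lowest, median and highest) in the synchronised and at 0.37, 1.28 and 2.02 CPM in the natural libraries. Its log2 fold change was 2.10 (SE 0.40, adjusted p 0.54) with edgeR, while DESeq2's Wald test gave 2.11 with an adjusted p of 0.00059. Its luteal median was 5.63 CPM, inside the synchronised follicular range.

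IDS, iduronate 2-sulfatase of the lysosome, which degrades glycosaminoglycans, stood at 74.7, 87.6 and 116 CPM in the synchronised and at 40.1, 66.7 and 74 CPM in the natural libraries. The gap between the lowest synchronised and the highest natural library was narrow. The log2 fold change was 0.55 (SE 0.125, adjusted p 0.54), and it was 0.35 without natural replicates 4, 6 and 7, which held the 3 lowest natural values. The luteal median was 40.3 CPM.

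Names were at hand for 1328 of the genes tested, and their source bears on every list. They came from the study's tables, which hold largely genes selected as higher in these same synchronised Suffolk libraries than in Fur. Of the named genes, 10.1% had an unadjusted p under 0.05 and were higher in the synchronised ewes, and 1.36% were higher in the natural ewes. By sign 75.6% of the named genes were higher in the synchronised ewes, and their median log2 fold change was 0.148, against −0.021 over all genes tested. The counts in the gene lists are therefore to be read against the named genes, and their direction is not independent of how the names were chosen. Listed genes without a name at hand could not be found by symbol and are missing from the lists.

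The named genes of smallest p that were higher in the synchronised ewes were IDS, ATXN1, WDFY3, USH1C and ISG15, none of which passed the test. ATXN1, a transcriptional co-repressor, had a median of 19.4 CPM (14.5 to 24.4) in the synchronised and 13.9 CPM (11.9 to 18.2) in the natural libraries, with a log2 fold change of 0.46 (SE 0.12). WDFY3, an adaptor of selective autophagy, had 114 CPM (92.7 to 155) against 91.5 CPM (71.1 to 103). USH1C, a scaffold protein of epithelial microvilli, had 21.6 CPM (14.3 to 48) against 10.4 CPM (5.12 to 25.1). For USH1C 6 of the 8 natural libraries lay below all synchronised ones. The adjusted p of all 5 was 0.54.

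The named genes of smallest p on the natural side were PI16, SOX17, PLA1A, SLC22A16 and DES. PI16, a peptidase inhibitor of fibroblasts, had 0.54, 0.793 and 3.4 CPM in the synchronised and 0.484, 2.3 and 23 CPM in the natural libraries, with a log2 fold change of −2.59 (SE 0.62, adjusted p 0.54). Natural replicates 2 and 6 stood at 23 and 21.2 CPM and the other 6 natural libraries at 3.61 CPM or lower, so that those 2 stood apart. DESeq2's Wald test gave PI16 an adjusted p of 0.0446. The natural median of PI16 was 2.04 CPM for Belclare, 22.4 CPM for Fur and 23.8 CPM for NWS.

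SOX17, a transcription factor of endothelium and of the reproductive tract epithelium, had 41.2 CPM (35.8 to 52.5) in the synchronised and 49.5 CPM (45 to 66.4) in the natural libraries. Its log2 fold change was −0.33 (SE 0.10, adjusted p 0.573), and 6 of the 11 synchronised libraries lay below all natural ones. SLC22A16, a carnitine transporter, had 2.58 CPM (1.7 to 3.88) against 3.81 CPM (1.18 to 12.1), with a log2 fold change of −0.91 (SE 0.30), which was −0.55 without natural replicate 4. PLA1A, a phospholipase that acts on phosphatidylserine, had a median of 5.66 CPM in the synchronised and 9.91 CPM in the natural libraries. Natural replicate 4 alone stood at 420 CPM for PLA1A, and the log2 fold change of −2.70 (SE 0.86) was −0.73 without it.

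**Figure D3:**
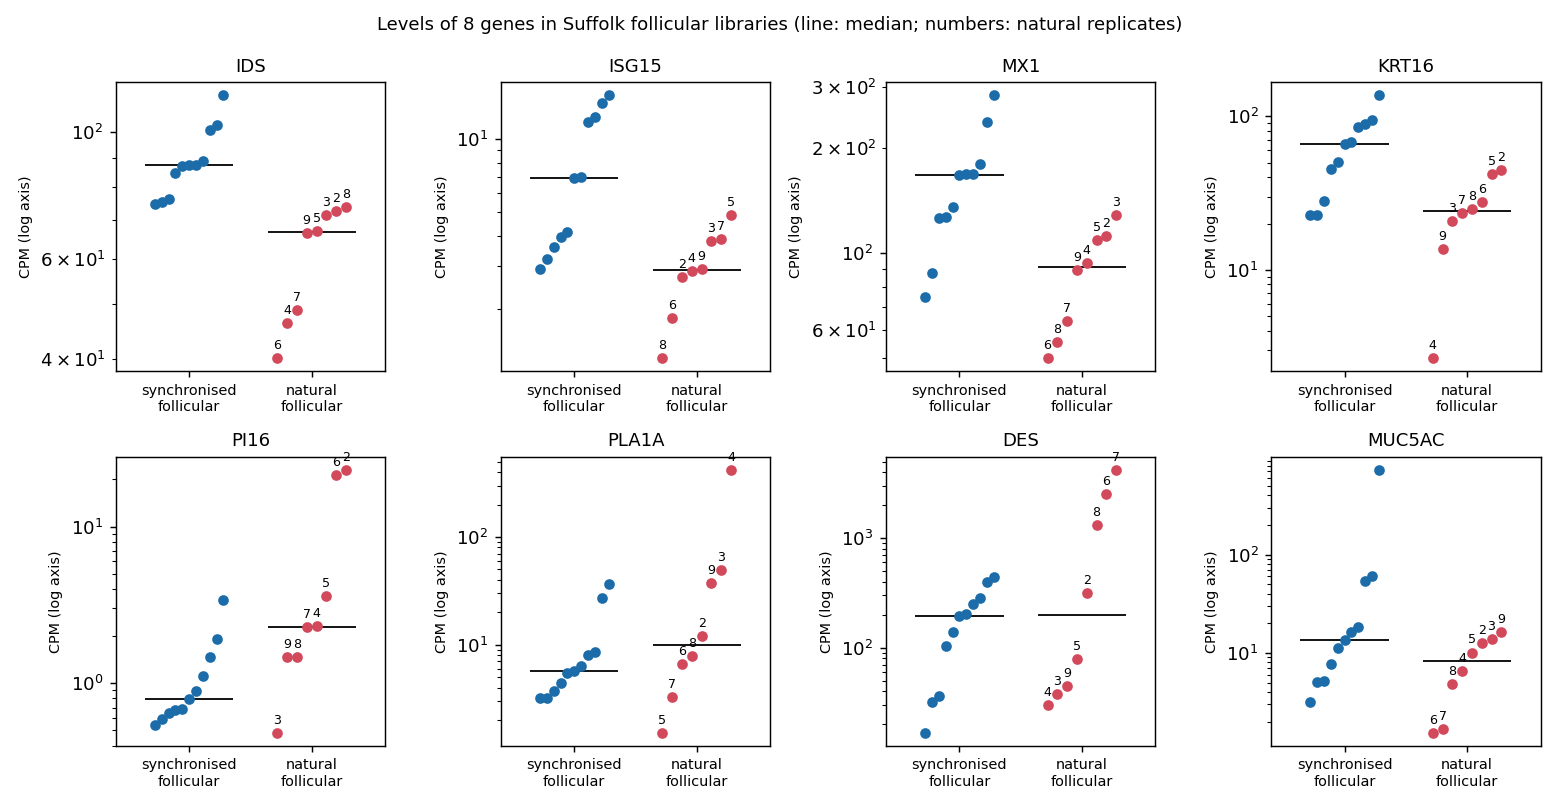
Levels in CPM on log axes of 8 genes in the 11 synchronised (blue) and 8 natural (red) follicular libraries of Suffolk, sorted by value within each group, with the median as a line and natural replicates numbered. IDS is the gene whose groups do not overlap, and PLA1A, DES and MUC5AC show values far from the rest in natural replicate 4, in natural replicates 6, 7 and 8 and in 1 synchronised library.

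Muscle genes spread widely within the natural group. DES, desmin, the intermediate filament of muscle, had 16.7, 194 and 438 CPM in the synchronised and 29.9, 198 and 4200 CPM in the natural libraries. The medians lay close together, while natural replicates 6, 7 and 8 stood at 2540, 4200 and 1330 CPM, above all synchronised libraries. ACTG2, smooth muscle gamma actin, was at 849, 1900 and 431 CPM in these 3 libraries and at 525 CPM in natural replicate 2, against 10.3 to 269 CPM in the synchronised libraries.

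The smooth muscle list summed to 69.7 to 764 CPM in the synchronised (median 322) and to 93.6 to 6180 CPM in the natural libraries (median 522). Of its 6 tested members 0 were DEGs, and 3 (DES, ACTG2 and ASB2, a muscle ubiquitin ligase subunit) had an unadjusted p under 0.05 on the natural side. On that side 1.36% of the named genes and 5.52% of all genes tested had such a p. MYLK3, a myosin light chain kinase, had one on the synchronised side, with 17 CPM (7.68 to 39.4) against 11.2 CPM (6.65 to 15.3). The log2 fold changes of DES, ACTG2 and ASB2 were −2.51 (SE 0.86), −1.89 (SE 0.73) and −1.64 (SE 0.69). Without natural replicates 4, 6 and 7 they were −0.94, −0.74 and 0.06, with unadjusted p of 0.246, 0.296 and 0.925.

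The list also held PCP4, a calmodulin regulator, ACTC1, cardiac actin, PNCK, a calmodulin-dependent kinase, and POPDC2, a popeye-domain protein of muscle, which were below the filter in the 19 libraries and were not tested. PCP4 reached 26.1 CPM, PNCK 4.2 CPM and POPDC2 9.56 CPM in natural replicate 7, and ACTC1 7.61 CPM in natural replicate 2, while the highest synchronised values of the 4 genes lay between 0.204 and 0.987 CPM. In Fur and NWS ewes DES had medians of 2410 to 3490 CPM in both cycles, against 122 and 292 CPM in synchronised and natural Belclare ewes. The muscle list moved with these natural libraries, and its part in the other differences of the natural group was not tested.

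**Figure D4:**
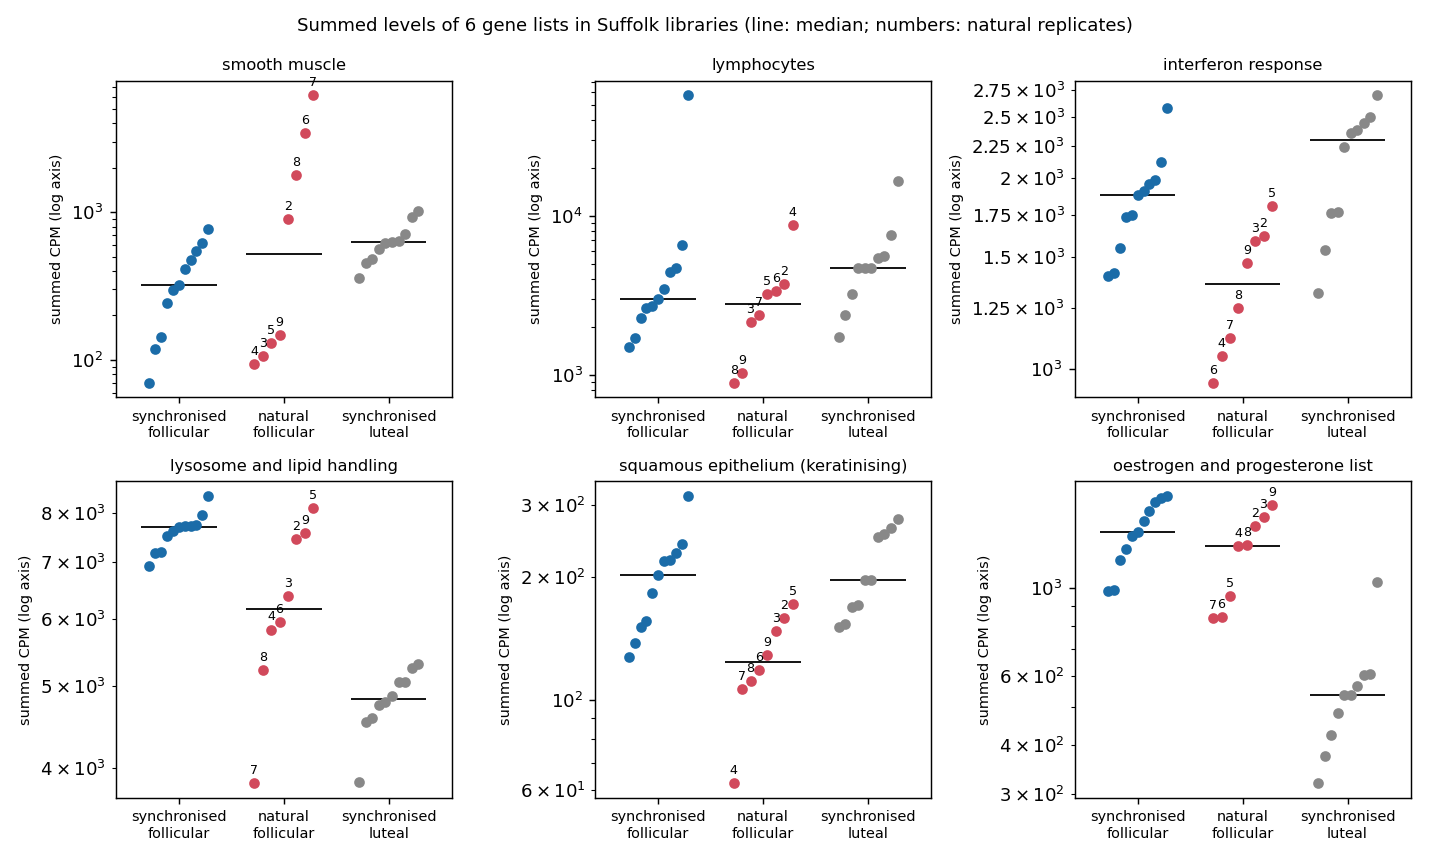
Summed CPM on log axes of 6 gene lists in the Suffolk libraries (blue synchronised follicular, red natural follicular, grey synchronised luteal), sorted by value, with the median as a line and natural replicates numbered. Natural replicates 6 and 7 are highest for smooth muscle, a synchronised library is highest for lymphocytes at 57300 CPM, and the luteal libraries lie below most follicular ones for the oestrogen and progesterone list.

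Steroid receptors and oestrogen or progesterone responsive genes gave 0 DEGs among 21 tested, of 29 symbols listed. ESR1, an oestrogen receptor, and PGR, the progesterone receptor, had no name at hand and were not assessed in this list. By sign 15 of the 21 tested genes were higher in the synchronised and 6 in the natural ewes. Of all named genes 75.6% were higher in the synchronised ewes. The 21 tested genes had a median log2 fold change of 0.304. That median was 0.156 without natural replicates 4, 6 and 7 and 0.2 without natural replicate 7 alone. ZNF703, a transcriptional repressor induced by oestrogen in mammary cells, had the smallest p of the list, with 8.2 CPM (5.24 to 10.9) against 5.96 CPM (5.47 to 7.44), a log2 fold change of 0.41 (SE 0.12) and 9 of the 11 synchronised libraries above all natural ones. IHH, a hedgehog ligand under progesterone control in the uterus, had 4.4 CPM against 3.09 CPM in the median, but natural replicate 4 stood at 62.1 CPM. Its log2 fold change was −1.21 (SE 0.63) with and 0.42 without that library.

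Mucins and mucus-glycosylating enzymes gave 0 DEGs among 15 tested, with a median log2 fold change of 0.282, which was 0.098 without natural replicates 4, 6 and 7. MUC5AC, a gel-forming mucin, had 3.2, 13.6 and 724 CPM in the synchronised and 1.55, 8.3 and 16.5 CPM in the natural libraries. The value of 724 CPM belonged to synchronised replicate 2, and the next was 60.7 CPM in synchronised replicate 6. The log2 fold change of MUC5AC was 3.31 (SE 1.06, adjusted p 0.573) with synchronised replicate 2 and 1.20 without it. ST6GAL2, which adds sialic acid to glycans, had 7.52 CPM (4.42 to 27.4) against 3.46 CPM (1.48 to 12.6), with a log2 fold change of 1.02 (SE 0.42).

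Secreted cervical proteins and the secretory pathway gave 0 DEGs among 13 tested and a median log2 fold change of 0.03, which lay between −0.241, without synchronised replicate 3, and 0.151, without natural replicate 9, when 1 library was left out. LMAN1L, a cargo receptor of the early secretory pathway, had medians of 11.4 and 6.41 CPM, and natural replicate 5 stood at 233 CPM. Its log2 fold change of −1.86 (SE 0.86) was −0.50 without that library. LGALS3BP, a secreted galectin-binding glycoprotein, had 234 CPM (152 to 294) against 194 CPM (112 to 276).

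Ion, water and nutrient transporters of the epithelium gave 0 DEGs among 29 tested, with a median log2 fold change of 0.241 that was −0.020 without natural replicates 4, 6 and 7 and 0.16 without natural replicate 7 alone. ATP6V0D2, a subunit of the proton pump, had 1.21 CPM (0.617 to 3.4) against 2.26 CPM (0.0941 to 19.3), a log2 fold change of −1.51 (SE 0.59). KCNK6, a potassium channel, had 15.5 CPM (7.37 to 20.2) against 11.6 CPM (4.29 to 13), and 8 of the 11 synchronised libraries were above all natural ones. Epithelial identity and junction genes gave 0 DEGs among 26 tested, a median of 0.12 that was −0.07 without natural replicates 4, 6 and 7 and 0.039 without natural replicate 6 alone. Among them was CLDN12, a claudin of tight junctions, at 14.1 CPM (11.5 to 16.6) against 11.6 CPM (7.25 to 14.3).

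Squamous and ciliated epithelium also gave 0 DEGs, among 6 and 12 tested genes. The squamous list held 24 symbols, of which 7 had a name, and KRT5, KRT14 and TP63 were among those without one. All 6 tested squamous genes were higher in the synchronised ewes by sign, where 75.6% of the named genes were. Their median log2 fold change was 0.726, or 0.452 without natural replicates 4, 6 and 7. The named members summed to 127 to 316 CPM in the synchronised and 62.4 to 172 CPM in the natural libraries. KRT16, a keratin of stratified epithelium, had 22.6, 66.3 and 137 CPM against 2.64, 24.2 and 44.5 CPM, with a log2 fold change of 1.37 (SE 0.42, adjusted p 0.573). In KRT16 8 of the 11 synchronised libraries lay above all natural ones. EVPLL, an envoplakin-like gene, had 1.64 CPM (0.789 to 2.97) against 0.933 CPM (0.188 to 1.64).

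In the ciliated list 11 of 12 genes were higher in the synchronised ewes by sign, where 75.6% of the named genes were. The median log2 fold change was 0.252, which was 0.111 without natural replicates 4, 6 and 7. The summed level had the opposite order, with a median of 885 CPM (690 to 1100) in the synchronised and 1070 CPM (339 to 1210) in the natural libraries. On the synchronised side 2 members had an unadjusted p under 0.05, where 10.1% of the named genes did. Of these 2 members 0 kept one without those 3 libraries, and 1 member had one on the natural side. WDR34, a subunit of the dynein that carries cargo in cilia, had 17.1 CPM (11 to 23.2) against 13.1 CPM (10.9 to 16.7), and RSPH9, a protein of the ciliary radial spokes, had 35.5 CPM (29.3 to 46.4) against 28.1 CPM (16.6 to 43.6). Natural replicate 4 had the lowest sums of all 19 libraries for ciliated epithelium, at 339 CPM, and for squamous epithelium, at 62.4 CPM.

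Fibroblast and extracellular matrix genes gave 0 DEGs among 33 tested and a median log2 fold change of 0.111. That median lay between −0.005, without synchronised replicate 3, and 0.238, without natural replicate 9, when 1 library was left out. It was 0.02 to 0.046 without natural replicate 5, 6, 7 or 8 and 0.201 without natural replicate 4. Apart from PI16, PDPN, podoplanin, had the smallest p, with 63 CPM (24 to 115) against 45.9 CPM (31.7 to 74.7). The list summed to 5230 to 13500 CPM in the synchronised and 3370 to 10100 CPM in the natural libraries.

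Interferon-responsive genes were the list with the most members at an unadjusted p under 0.05. Of 23 tested identifiers 0 were DEGs, 22 were higher in the synchronised ewes by sign and 13 of these had an unadjusted p under 0.05. Of the named genes 75.6% were higher by sign and 10.1% had such a p on that side. The list was chosen with earlier results of these data known, and the names were selected largely on these synchronised libraries. IFITM3 enters it with more than 1 identifier, and its members were measured in the same ewes. The shares are therefore a description and not a test of the list. The median log2 fold change was 0.376 and the list summed to 1400 to 2580 CPM in the synchronised (median 1880), 951 to 1810 CPM in the natural (median 1360) and 1320 to 2700 CPM in the luteal libraries. Without natural replicates 4, 6 and 7 the median was 0.284, and 5 members had an unadjusted p under 0.05.

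ISG15, a ubiquitin-like protein conjugated after interferon, had 2.94, 6.94 and 15.1 CPM in the synchronised and 1.26, 2.91 and 4.86 CPM in the natural libraries, a log2 fold change of 1.34 (SE 0.36, adjusted p 0.54). Synchronised replicates 1, 4, 10 and 11 lay between 11.7 and 15.1 CPM and the other 7 below 7 CPM, so that the spread within the synchronised group was wide. MX1, an antiviral GTPase, had 74.9, 168 and 284 CPM against 49.8, 91.3 and 129 CPM, a log2 fold change of 0.87 (SE 0.24), and 7 of the 11 synchronised libraries were above all natural ones. Without natural replicates 4, 6 and 7 their log2 fold changes were 1.3 and 0.70.

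OAS1, OAS2, ZBP1, RNF213 and DHX58 are given because of their values, chosen after these were seen. OAS1, an enzyme that makes the activator of RNase L, had 15.3 CPM (4.15 to 58) against 5.56 CPM (4.07 to 14.5), with a log2 fold change of 1.43 (SE 0.47). OAS2, of the same enzyme family, had 81.5 CPM (35.5 to 242) against 44.7 CPM (32.2 to 77.3), and ZBP1, a sensor of Z-form nucleic acids, 13.2 CPM (9.34 to 23.6) against 5.7 CPM (2.12 to 15). RNF213, an interferon-induced ubiquitin ligase, had 182 CPM (105 to 463) against 143 CPM (77.4 to 174), and DHX58, a regulator of RNA sensing, 33.9 CPM (21.2 to 67.8) against 23.6 CPM (18.4 to 49.5). The groups overlapped in all 5 genes, and none passed the test.

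Leukocyte lists gave 0 DEGs, among 25 lymphocyte, 14 macrophage and dendritic cell and 11 neutrophil and acute inflammation identifiers. The lymphocyte list had a median log2 fold change of 0.434. In it 6 members had an unadjusted p under 0.05, all higher in the synchronised ewes, where 10.1% of the named genes did on that side. With synchronised replicate 2 left out the median was 0.227 and 2 members had such a p. Its sum was 57300 CPM in synchronised replicate 2 and 1490 to 6540 CPM in the other synchronised libraries, against 886 to 8750 CPM in the natural ones. Most of that library's sum came from the 2 identifiers named IGHG3, an immunoglobulin heavy chain constant region, at 43100 and 13700 CPM. The authors kept only read pairs that mapped uniquely. Pairs that match both identifiers would thus be missing, so that each value is uncertain.

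JAK3, the kinase of the common gamma chain receptors, had 99.4 CPM (27.8 to 175) against 34.2 CPM (14.8 to 116), a log2 fold change of 1.13 (SE 0.40). IRF4, a transcription factor of plasma cells, had medians of 6.36 and 3.58 CPM with 73 CPM in synchronised replicate 2, and its log2 fold change of 1.56 (SE 0.61) was 0.62 without that library. CD27, a receptor of memory B and T cells, was likewise at 32.5 CPM there, and its log2 fold change of 1.33 (SE 0.57) was 0.49 without it. JAK3 did not turn on that library, with a log2 fold change of 1.19 without it.

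Of 19 listed macrophage and dendritic cell symbols 14 had a name, and CD14, CD68, CD163, CSF1R and AIF1 did not. All 14 were higher in the synchronised ewes by sign, where 75.6% of the named genes were. Their median log2 fold change was 0.380, and 4 had an unadjusted p under 0.05, where 10.1% of the named genes did on that side. The median was 0.274, with 2 members at such a p, without natural replicates 4, 6 and 7. CYBA, a subunit of the phagocyte oxidase, had 204 CPM (150 to 246) against 145 CPM (61.7 to 224), and CD80, a costimulatory ligand, 9.67 CPM (4.65 to 16.4) against 5.75 CPM (2.21 to 8.88). The neutrophil list had a median log2 fold change of 0.224, which lay between 0.024 and 0.685 when 1 library was left out. By sign 7 of its identifiers were higher in the synchronised and 4 in the natural ewes. The list summed to 201 to 426 CPM in the synchronised and 105 to 586 CPM in the natural libraries. In this list CD177, a neutrophil surface glycoprotein, had 6.68 CPM (1.94 to 188) against 2.22 CPM (0.0471 to 12.4). The highest value belonged to synchronised replicate 6, and the log2 fold change of 2.80 (SE 1) was 1.12 without it. PADI4, a citrullinating enzyme of granulocytes, had 140 CPM (53.4 to 283) against 73.3 CPM (4.14 to 184).

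Complement and antimicrobial genes gave 0 DEGs among 15 tested, with a median log2 fold change of 0.359 that was 0.014 without natural replicates 4, 6 and 7. It was 0.208 and 0.179 without synchronised replicates 2 and 3 and 0.64 without natural replicate 9. ULBP2 and MICB, stress ligands of the natural killer receptor NKG2D, had 8.5 and 22.4 CPM against 7.92 and 15.2 CPM in the medians. The prostaglandin and oxytocin list gave 0 DEGs among 9 tested and a median of −0.010, which lay between −0.281, without synchronised replicate 10, and 0.073, without natural replicate 6, when 1 library was left out. Beside PLA1A, its secreted phospholipase PLA2G2C had 2.23 CPM (1.02 to 5.05) against 4.77 CPM (0.858 to 9.69), with 4 of the 8 natural libraries above all synchronised ones. PTGS1, the constitutive cyclooxygenase, had 36.7 CPM (18.1 to 76.4) against 29.7 CPM (5.27 to 48.7) and a log2 fold change of 0.31 (SE 0.31).

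Lysosomal and lipid-handling genes gave 0 DEGs among 30 tested. By sign 28 were higher in the synchronised ewes, where 75.6% of the named genes were. On that side 7 had an unadjusted p under 0.05, where 10.1% of the named genes did. The median log2 fold change was 0.189, or 0.153 with 4 such members without natural replicates 4, 6 and 7. The sums were 6920 to 8380 CPM in the synchronised, 3840 to 8100 CPM in the natural and 3850 to 5310 CPM in the luteal libraries. Besides IDS, GLB1, the lysosomal beta-galactosidase, had 249 CPM (204 to 396) against 227 CPM (106 to 276).

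The remaining lists held 0 DEGs as well. Among 5 clock and immediate early genes PFKFB3, a regulator of glycolysis, had 29.2 CPM (18.6 to 52.5) against 38.9 CPM (21.9 to 89), and NR1D2, a clock repressor, 39.7 against 31 CPM. Among 10 endothelial and blood genes the smallest p were those of SPTB, spectrin of red cells, at 9.01 against 6.65 CPM, and EPOR, the erythropoietin receptor, at 1.16 against 0.619 CPM. Among 10 nerve and glia genes CNTN2, an axonal adhesion molecule, had 3.05 CPM (1.23 to 5.3) against 1.7 CPM (0.282 to 3.18). NRCAM, another neural adhesion molecule, had medians of 2.1 and 0.875 CPM with 188 CPM in natural replicate 4, and its log2 fold change was −2.34 (SE 1.17) with and 1.49 without that library. The mitochondrial identifiers COX-1 and MT-ND6 had log2 fold changes of −0.04 (SE 0.10) and 0.13 (SE 0.24).

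The genes the study itself names were chosen on these synchronised libraries, so their direction is not independent of the data. Of 30 tested identifiers 0 were DEGs, and 6 had an unadjusted p under 0.05 on the synchronised and 5 on the natural side. Such a p was reached by 10.1% and 1.36% of the named genes and by 2.78% and 5.52% of all genes tested. The counts of 6 and 5 were 1 and 3 without natural replicates 4, 6 and 7. Those not given above included FOXC1, a forkhead factor of mesenchyme, at 6.9 CPM (2.11 to 8.34) against 2.55 CPM (0.459 to 6.22), a log2 fold change of 0.94 (SE 0.43). TRPM1, a cation channel of pigment cells, had 2.73 CPM (0.54 to 11.5) against 0.667 CPM (0 to 6.23), and APOE, a lipid carrier, 316 CPM (242 to 393) against 251 CPM (160 to 385). SAA1, EGFL6, ATP8A2, C3, PADI2, IGF2, CCER2, SERPINF2, SCGB2A1, AQP9, SLC16A6 and FLT3 had log2 fold changes between −0.82 and 0.73, each with an unadjusted p of 0.175 or above. CLGN and ADAM7 were below the filter, with highest values of 5.55 and 2.37 CPM in natural replicate 6.

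The difference between the cycles in Suffolk was then set against that in each other breed, in a fit of all 77 follicular libraries. Against Belclare 0 of 15398 genes differed (0%; 682 genes, 4.43%, at an unadjusted p under 0.05, and 6 with DESeq2's Wald test). Against Fur 353 genes differed (2.29%), 90 with a higher synchronised over natural ratio in Suffolk (0.584%) and 263 with a lower one (1.71%). Against NWS 222 differed (1.44%), 81 higher (0.526%) and 141 lower (0.916%). The 3 comparisons share the Suffolk libraries, and Fur and NWS ewes were kept in Norway, so that breed and country cannot be told apart.

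These counts turned on single libraries. Without natural replicate 7 they were 68 against Fur and 57 against NWS, and without natural replicate 5 they were 757 and 603. Without natural replicate 6 they were 650 and 366, without natural replicate 8 they were 200 and 103, and without natural replicate 9 they were 191 and 112. Without synchronised replicate 1 they were 201 and 130, without synchronised replicate 10 they were 214 and 123, and without natural replicate 3 the count against Fur was 227. They were 247 and 25 without natural replicates 4, 6 and 7. When only the 2 breeds compared were fitted, 641 genes differed from Fur and 1 from NWS. In the same fit of 77 libraries the cycles differed in 2 genes within Suffolk (0.013%), 1 within Belclare (0.00649%), 226 within Fur (1.47%) and 64 within NWS (0.416%).

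The 2 genes called within Suffolk by that fit were ENSOARG00000007414 and ENSOARG00000012259, named here after their values were seen. ENSOARG00000007414 had 18.5 CPM (13 to 28.5) in the synchronised and 20.4 CPM (12.6 to 944) in the natural libraries, with natural replicate 4 at 944 CPM. ENSOARG00000012259 had at most 0.0681 CPM in the synchronised and at most 2.96 CPM in the natural libraries, and its synchronised values all lay below the level of 3 counts.

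Interferon-responsive genes were among those that differed from Fur. In that list 9 of 23 identifiers had a higher ratio in Suffolk than in Fur and 0 a lower one, where 3.41% of the named genes and 0.584% of all genes did. The names were chosen on the same synchronised Suffolk libraries against Fur, so this direction is not independent of the choice. MX1 had log2 fold changes of 0.87 in Suffolk, 0.05 in Belclare, −1.20 in Fur and −0.89 in NWS, and its difference from Fur was 2.07 (SE 0.48, adjusted p 0.0145) and from NWS 1.76 (SE 0.46, adjusted p 0.0268). In Fur ewes MX1 had medians of 77.2 CPM synchronised and 180 CPM natural, the opposite order to the Suffolk ewes.

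OAS1 differed from Fur by 3.47 (SE 0.77, adjusted p 0.0142) and ISG15 by 3.07 (SE 0.73, adjusted p 0.0188). Fur medians of OAS1 were 5.87 CPM synchronised and 34.5 CPM natural, and those of ISG15 2.94 and 8.51 CPM. Neither differed from NWS past the threshold, with adjusted p of 0.0712 and 0.072, and their differences from Belclare had adjusted p of 0.999 and 0.985. Without natural replicates 4, 6 and 7 the differences from Fur of MX1, OAS1 and ISG15 were 1.88, 3.22 and 3.02, with adjusted p of 0.0406, 0.0346 and 0.0371, while OAS2, ZBP1, RNF213 and DHX58 no longer passed. The difference of MX1 from NWS did not pass without them either (1.58, adjusted p 0.105).

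PMEL, a melanosome matrix protein, is given as the gene of smallest p against Fur among the 1349 tested genes with a name. It had 24.3 CPM (10 to 121) in synchronised and 10.6 CPM (4.08 to 30.5) in natural Suffolk libraries, and differed from Fur by 4.03 (SE 0.87, adjusted p 0.0142) and from NWS by 3.46 (SE 0.83, adjusted p 0.0174). The adjusted p of PMEL was 0.0175 against Fur and 0.0582 against NWS without natural replicates 4, 6 and 7. ADAM7, a membrane protein of the ADAM family, differed from Fur by −3.77 (SE 0.84, adjusted p 0.0142), and its highest value was 36.9 CPM in 1 synchronised Fur library with a group median of 0.452 CPM. WDR45, a protein of autophagosome formation, had 61.3 CPM (48.6 to 79.1) and 54.8 CPM (40.1 to 77.2) in Suffolk but 42.5 and 62.6 CPM in Fur and 43.1 and 62 CPM in NWS. Its difference was 0.69 from Fur (adjusted p 0.0145) and 0.66 from NWS (adjusted p 0.0169, or 0.0582 without those 3 libraries).

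Against NWS the lysosomal list held 7 of 30 genes with a higher ratio in Suffolk and 0 with a lower one, where 3.04% of the named genes did. In the fit of Suffolk and NWS alone no gene at all had a higher ratio in Suffolk past the threshold, and without natural replicates 4, 6 and 7 only 4 genes of all tested did. GLB1 had medians of 152 CPM synchronised and 262 CPM natural in NWS, and differed by 1.09 (SE 0.24, adjusted p 0.0134), a call that was lost without natural replicates 4, 6 and 7 (adjusted p 0.0664). AC027796.3, known by a clone-based name, differed by 0.82 (SE 0.18, adjusted p 0.0118), and by 0.81 (adjusted p 0.03) without those 3 libraries. PLA1A differed from NWS by −4.69 (SE 1.11, adjusted p 0.0171), with natural replicate 4 at 420 CPM, and the value was −3.12 with an adjusted p of 0.125 without natural replicates 4, 6 and 7. Against Belclare the genes of smallest p among those with a name were PI16, MUC5AC and CCER2, a coiled-coil gene, with adjusted p of 0.369, 0.479 and 0.466.

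**Figure D5:**
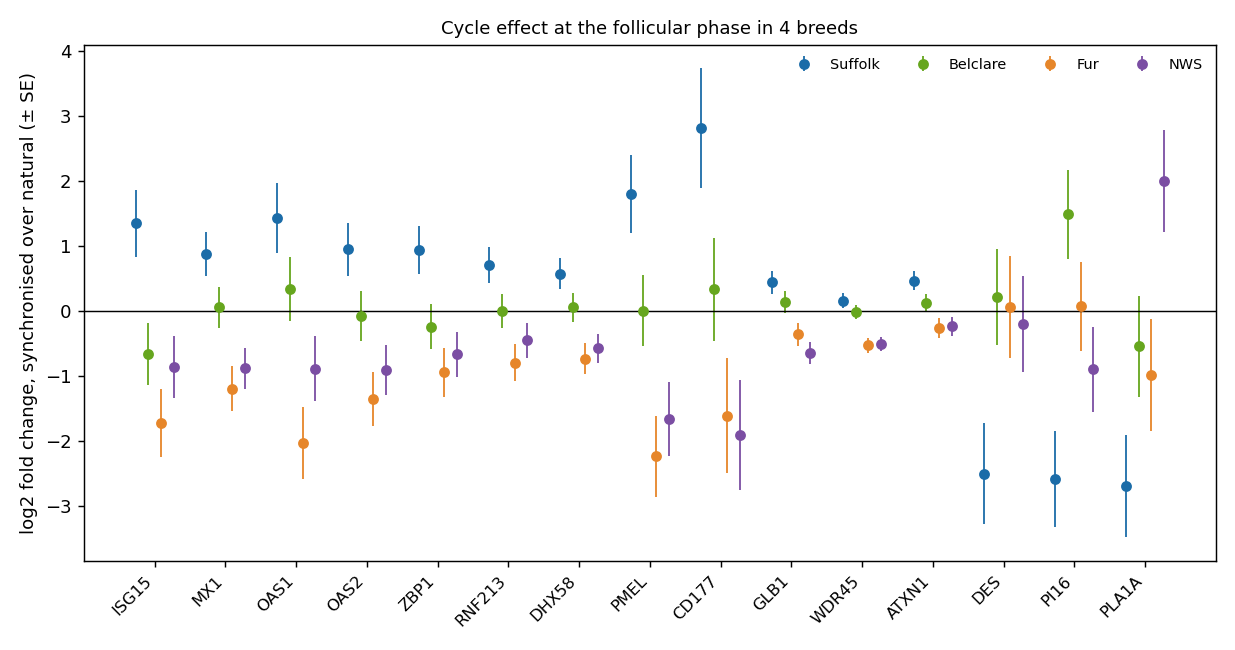
Log2 fold change of synchronised over natural ewes at the follicular phase in Suffolk (blue), Belclare (green), Fur (orange) and NWS (purple) for 15 named genes, with bars of 1 SE from the fit of 77 libraries. Interferon-responsive genes such as MX1 lie above 0 in Suffolk (0.87) and below 0 in Fur (−1.20) and NWS (−0.89), while DES lies at −2.51 in Suffolk, where natural replicates 6, 7 and 8 carry its highest levels.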

How the data were processed

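The authors aligned trimmed paired reads of TruSeq stranded mRNA libraries of sheep cervix to Oar_v3.1 with STAR 2.6.1b and deposited raw counts per gene from featureCounts (Subread 1.6.3). Here the counts of the 19 libraries were tested with edgeR 4.0.16 (quasi-likelihood, TMM, R 4.3.3), keeping genes with at least 1 CPM in at least 8 libraries. A gene was called at a Benjamini-Hochberg adjusted p under 0.05 and FC above 1.5. The breed by cycle interaction was fitted over 77 follicular libraries with the same filter and thresholds. Levels are CPM on TMM library sizes. The study's own test, DESeq2's likelihood ratio test, was run as an alternative (DESeq2 1.42.0), as were limma 3.58.1 and the others below. The fits were tested on simulated data.

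The library with contradictory labels (1) entered no comparison. Identifiers (27054) were matched to 1352 names from the study's tables, and 18 symbols had more than 1 identifier. Over 83 pairs of libraries within a group, the chi-square of their counts divided by its degrees of freedom was at least 27, so none was a copy. The members and the 21 gene lists were chosen with earlier results of these data known. The genes given in the text were drawn from those with a name, apart from the identifiers said to be chosen after their values were seen. They were the 5 of smallest p per direction since none passed, the 2 of smallest p per list, the 3 of smallest p per breed contrast, and the genes the study names. Also given were OAS1, OAS2, ZBP1, RNF213, DHX58, XAF1, HSH2D, IFITM3 and IGHG3, which were chosen after their values were seen. The p-values measure the spread between ewes, and limits from 3 counts cover counting error only. The result of 1 listed gene is not reported here.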

Additional observations from a re-analysis of the deposited data

Results flagged for a closer look

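The natural levels of genes and list sums made 110 sets. In 12 of them a library was set apart from the other 7 by more than Dixon's critical value (on a log2 scale). Many sets were chosen on their values, and the sets overlap and come from the same ewes. The count of 12 was therefore not set against a chance rate. Natural replicate 4 was the library set apart in 7. It was highest for IHH (62.1 CPM, next 7.19), NRCAM (188 CPM, next 6.43) and ENSOARG00000007414 (944 CPM, next 43.1), and lowest for KRT16 (2.64 CPM), SPTB (1.04 CPM), PTGS1 (5.27 CPM) and the IFITM3 identifier ENSOARG00000008115 (27.9 CPM). Natural replicate 5 was lowest for MT-ND6 (4.86 CPM) and highest for DHX58 (49.5 CPM), natural replicate 6 lowest for KCNK6 (4.29 CPM), natural replicate 9 highest for SERPINF2 (36.8 CPM), and natural replicate 3 lowest for ENSOARG00000001269 (2.07 CPM).

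The effect of the cycle differed between Suffolk and Fur in 353 genes and between Suffolk and NWS in 222, by the interaction test. Among the genes named, the Suffolk effect exceeded that in Fur by 0.73 for ATXN1, 3.07 for ISG15, 0.80 for ZNF703, 4.42 for CD177, 2.07 for MX1, 4.03 for PMEL, 3.47 for OAS1, 0.74 for AC027796.3, 0.69 for WDR45, 3.34 for ENSOARG00000014490, 1.25 for XAF1, 1.5 for RNF213, 2.31 for OAS2, 1.88 for ZBP1 and 1.31 for DHX58 on the log2 scale. It was lower than in Fur for ADAM7 (−3.77), PNCK (−4.53), ENSOARG00000006308 (−5.16), ENSOARG00000014157 (−2.17), ENSOARG00000007414 (−3.22) and ENSOARG00000012259 (−5.39). Without natural replicates 4, 6 and 7 the differences from Fur of ISG15, ZNF703, MX1, PMEL, OAS1, AC027796.3, WDR45, ADAM7 and ENSOARG00000006308 still passed, and the others did not.

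Against NWS the Suffolk effect was higher by 0.70 for ATXN1, 0.64 for ZNF703, 4.72 for CD177, 0.89 for CYBA, 1.76 for MX1, 0.89 for APOE, 4.05 for TRPM1, 3.46 for PMEL, 0.82 for AC027796.3, 1.09 for GLB1, 0.66 for WDR45, 1.82 for HSH2D and 1.15 for DHX58. None of these passed in the fit of Suffolk and NWS alone, and only AC027796.3 passed without natural replicates 4, 6 and 7 (0.81, adjusted p 0.03). The Suffolk effect was lower than in NWS for PLA1A (−4.69), PNCK (−4.36), ENSOARG00000006308 (−3.14), ENSOARG00000007414 (−3.14) and ENSOARG00000012259 (−4.36). In the fit of Suffolk and NWS alone only 1 gene of all tested was called, so at most 1 of these genes passed there. Natural replicate 4 held the highest natural value of PLA1A (420 CPM) and ENSOARG00000007414 (944 CPM). PNCK was below the filter in the 19 libraries, and ENSOARG00000012259 was near the floor.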

How the results depend on the processing

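The count of 0 DEGs held under DESeq2 size factors, 4 other filters, limma voom, robust estimation, glmTreat, no FC threshold, the fit of all 3 Suffolk groups and each library left out. It was 6 with DESeq2's Wald test, 3 with its likelihood ratio test and 2 in the fit of 77 libraries, and 1 list member (PI16) was called by the Wald test. The share of variance between the cycles was 6.43% to 8.81% with each library left out. With the replicate block over the 8 shared numbers the count was 0. Same-numbered libraries are different ewes whose deviations correlated at −0.206 to 0.359, and 2 natural libraries correlated best with their own number, so the numbers do not pair them. Against Belclare the count was 1 with no filter and 6 with the Wald test. Against Fur it was 68 to 757 with each Suffolk library left out and 641 in the fit of 2 breeds. Against NWS it was 57 to 603, 1 in the fit of 2 breeds, 147 without natural replicates 6 and 7, 25 without natural replicates 4, 6 and 7 and 334 with no FC threshold. The cause of these changes was not tested.

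Among the genes named, the log2 fold change in Suffolk changed sign as follows, with the range over each library left out where that range crossed 0. IHH was 0.40 with both DESeq2 tests, 0.43 without natural replicates 4, 6 and 7 and −1.45 to 0.42 over libraries. NRCAM was 0.58 with both DESeq2 tests, 1.15 without those 3 libraries and −3.19 to 1.49. LMAN1L was 0.78 with voom and 0.93 under the replicate block. ASB2 was 0.23 without natural replicates 6 and 7 and 0.055 without 4, 6 and 7, and ENSOARG00000007414 was 0.16 without 4, 6 and 7. Under the block COX-1 was 0.006, SAA1 (ENSOARG00000009847) 0.052, IGF2 0.13, SLC16A6 0.37, XAF1 −0.079 and SAA1 (ENSOARG00000009865) −0.12. SLC16A6 was 0.18 and the latter SAA1 −0.25 with voom. Without natural replicates 4, 6 and 7 that SAA1 was −0.24 and AQP9 −0.13, and without 6 and 7 FLT3 was −0.051. IGHG3 (ENSOARG00000009143) was −0.016 with both DESeq2 tests and −0.012 to 1.90 over libraries. Over libraries SAA1 ran from −1.03 to 0.08 and from −0.32 to 0.71, EGFL6 from −0.79 to 0.037, SERPINF2 from −1.30 to 2.16, SLC16A6 from −0.50 to 0.24 and FLT3 from −0.15 to 0.81. Leaving out several natural libraries was chosen after seeing the data. Depth limits genes near 0.224 CPM. With 8 natural ewes of wide spread and 14378 genes tested, differences near the median SE of 0.167 were not detectable, and differences of several SE did not pass either. IDS, at 0.55 with an SE of 0.125, had an adjusted p of 0.54 with edgeR's quasi-likelihood test.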

Other observations

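The Suffolk library whose title and labels disagree was placed in no group. Its summed levels were 455 CPM for the oestrogen and progesterone list, 1050 CPM for mucins and mucus glycosylation, 4560 CPM for lysosome and lipid handling, 924 CPM for smooth muscle, 138 CPM for nerve and glia and 1250 CPM for interferon response. The corresponding natural follicular ranges were 840 to 1630, 1110 to 6260, 3840 to 8100, 93.6 to 6180, 230 to 591 and 951 to 1810 CPM. The luteal ranges were 319 to 1040, 1140 to 2690, 3850 to 5310, 357 to 1020, 33.6 to 168 and 1320 to 2700 CPM.

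ENSOARG00000006308, ENSOARG00000014157, ENSOARG00000001269 and ENSOARG00000014874 have no name in the tables used and were called by DESeq2's Wald test. ENSOARG00000006308 stood at 1.38 CPM (0.477 to 4.13) in synchronised and 6.56 CPM (1.33 to 19) in natural ewes, and its log2 fold change was −2.40 with all libraries and −2.74 without natural replicates 4, 6 and 7. ENSOARG00000014157 stood at 4.84 CPM (1.3 to 8.79) against 17.8 CPM (2.59 to 33.8), and 6 of the 8 natural libraries were above all synchronised ones. ENSOARG00000001269 stood at 10.5 CPM (5.49 to 23.3) against 5.22 CPM (2.07 to 6.66). ENSOARG00000014874 stood at 7.78 CPM (2.17 to 13.9) against 23.2 CPM (7.8 to 26.4), and its luteal median was 92 CPM.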
